A study of Mus musculus with 8 samples.

Results

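The interferon-induced proteins with tetratricopeptide repeats (IFIT) and the 2′-5′-oligoadenylate synthetases (OAS) were examined in mouse bone-marrow-derived macrophages (BMDMs, Mϕ), with or without prior uptake of apoptotic cells (efferocytosis) and with or without lipopolysaccharide (LPS) and interferon γ (IFNγ). The members were 10 genes listed by symbol, of 55359 genes in the deposited table of normalized read counts: Ifit1, Ifit2, Ifit3, Ifit3b, Oas1a, Oas1g, Oas2, Oas3, Oasl1 and Oasl2. They were found through their Ensembl identifiers in mouse GENCODE annotation, by a rule that names genes and no values. In all, 18 IFIT and OAS genes were in the table, so that 8 relatives were no members.

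All Mϕ came from wildtype C57BL/6 mice of either sex, whose femoral marrow was grown in M-CSF and GM-CSF, and total RNA was sequenced after removal of ribosomal RNA. The naïve groups were Ctrl (no treatment) and LPS (6 h of stimulation, LPS at 100 ng/mL with IFNγ at 100 U/mL). The efferocytic groups were Eff (co-culture for 16 h with 5 apoptotic NIH-3T3 CA fibroblasts per Mϕ, removed by washing) and LPSEff (the same co-culture, then the same stimulation). NIH-3T3 CA is a mouse fibroblast line, used as 1 clone, that carries a caspase-8 domain activated by a dimerizer (10 nM). The dimerizer stayed in the co-culture, so that the Mϕ of Eff and LPSEff were exposed to it, and none is stated for Ctrl and LPS. CD45+ cells were isolated magnetically before extraction. Each group held n = 2 samples, numbered 1 and 2, and neither the labels nor the methods say whether these came from separate animals, so that p-values measure only the spread between these samples. Exact permutation of 2 against 2 samples cannot give a p below 0.333, so that all tests below use the spread that a model shares across genes.

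IFIT proteins bind foreign or incompletely capped RNA and block its translation. OAS proteins sense double-stranded RNA and make the messenger 2-5A. The OAS-like proteins Oasl1 and Oasl2 carry additional ubiquitin-like domains. In Mϕ, LPS acts through TLR4 and its adaptor TRIF to induce interferon β. Type I interferon then acts on its target genes through interferon-stimulated response elements (ISREs), and IFNγ through GAS elements.

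In the deposited table, 100% of the values of each sample were whole multiples of a single step (tolerance 0.01 reads), and the reads recovered this way numbered between 3481288 (Ctrl 1) and 12020918 (Ctrl 2) per sample. A total of 3 reads corresponded to between 1.73 and 5.71 normalized counts, and the 10 members held between 706 reads (Eff 2) and 52525 reads (LPSEff 1). Of 8 macrophage markers, all had a mean of at least 10 normalized counts. The summed level of 7 fibroblast markers was 64.7 to 121 in Ctrl, 342 to 467 in LPS, 917 to 1740 in Eff and 2474 to 2902 in LPSEff, where Pdgfrb gave 246 and 245 of the sum in the LPS samples. The 6 dendritic cell markers summed to 200 to 461 in Ctrl, 645 to 1618 in LPS, 164 to 326 in Eff and 448 to 767 in LPSEff, the 4 neutrophil markers to 617 to 872, 1385 to 1601, 1020 to 1214 and 1517 to 1956, and the 5 lymphocyte markers to between 4.94 and 14.0 in every group. No marker was at 0 in all samples, and the part of these cells in the values below was not tested. As these are bulk samples, fewer cells of a type and less RNA per cell cannot be told apart.

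The 4 IFIT members lay within 104 kb of chromosome 19 (chr19:34527932-34632174, GRCm39) on the plus strand, in the order Ifit2, Ifit3, Ifit3b, Ifit1. Oas2, Oas3, Oas1g and Oas1a lay on the minus strand within 178 kb of chromosome 5 (chr5:120868398-121046449), and Oasl2 and Oasl1 on the plus strand within 41.0 kb of the same chromosome (chr5:115034997-115075974). Near-identical copies limited what could be counted for some of them. Of all 50-base windows of their annotated exons, 58.2% of those of Ifit3 and 51.8% of those of Ifit3b occurred once in the genome, and Ifit3b shared 47.6% with Ifit3. For Oas1g 46.2% of the windows occurred once and 52.2% were shared with Oas1a, of which 70.8% occurred once. The annotated exons of Oas1a cover 7989 bases and its canonical transcript 1911, so that its 70.8% need not hold for that transcript. The other 6 members were between 95.5% (Ifit1) and 100% (Oas2, Oasl1) unique. The counting program leaves out reads that align to several places by default, so that the levels of Ifit3, Ifit3b, Oas1a and Oas1g are uncertain. Oas2 and Oasl1 shared 177 and 82 exon bases, respectively, with annotated antisense RNAs, which the counting program separates by strand in its default mode, and no member shared exon bases with another gene on its own strand.

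To determine how LPS/IFNγ changed the IFIT genes, LPS was compared with Ctrl and LPSEff with Eff. All 4 IFIT members rose in naïve and in efferocytic Mϕ, by 5.51 to 6.64 and by 5.96 to 7.86 on the log2 scale. Ifit1, which recognises RNA caps that lack 2′-O-methylation, had 78.1 and 53.2 normalized counts in Ctrl, 5530 and 6426 in LPS, 38.6 and 23.3 in Eff, with 7039 and 7349 in LPSEff. All stimulated samples were thus far above all unstimulated ones, and the Eff samples were the lowest of the 8. The log2 fold change of Ifit1 (of normalized count + 1, as for every fold change below) was 6.51 (SE 0.28, limma adjusted p = 9.5e-06) in naïve and 7.86 (SE 0.28, limma adjusted p = 3.8e-06) in efferocytic Mϕ, which corresponded to ratios of the group means of 91.1 and 233.

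Ifit2, which also binds RNA, was the most abundant IFIT member by normalized count. It had 126 and 94.8 counts in Ctrl, 9279 and 12995 in LPS, 63.97 and 75.5 in Eff, with 10693 and 13052 in LPSEff, without overlap between stimulated and unstimulated samples. Its log2 fold change was 6.64 (SE 0.24, limma adjusted p = 5.6e-06) in naïve and 7.39 (SE 0.24, limma adjusted p = 3.2e-06) in efferocytic Mϕ.

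Ifit3 encodes another IFIT protein, and Ifit3b is its near-identical copy. Ifit3 had 15.2 and 17.3 normalized counts in Ctrl, 1045 and 1297 in LPS, 16.6 and 9.88 in Eff, with 1344 and 1244 in LPSEff. Ifit3b had 7.62 and 1.73 in Ctrl, 180 and 269 in LPS, 3.51 and 0.706 in Eff, with 144 and 204 in LPSEff. The Ctrl and Eff values of Ifit3b rested on 4, 3, 4 and 1 reads, so that its fold is the least certain of the 10. Log2 fold changes were 6.08 (SE 0.28) and 6.54 (SE 0.28) for Ifit3, and 5.51 (SE 0.66) and 5.96 (SE 0.66) for Ifit3b, in naïve and efferocytic Mϕ, respectively. The limma adjusted p was at most 0.00085 for either gene. Relative to Ifit3, the count of Ifit3b was 10% to 50% in Ctrl, 17.2% to 20.8% in LPS, 7.14% to 21.1% in Eff and 10.7% to 16.4% in LPSEff.

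**Figure D1:**
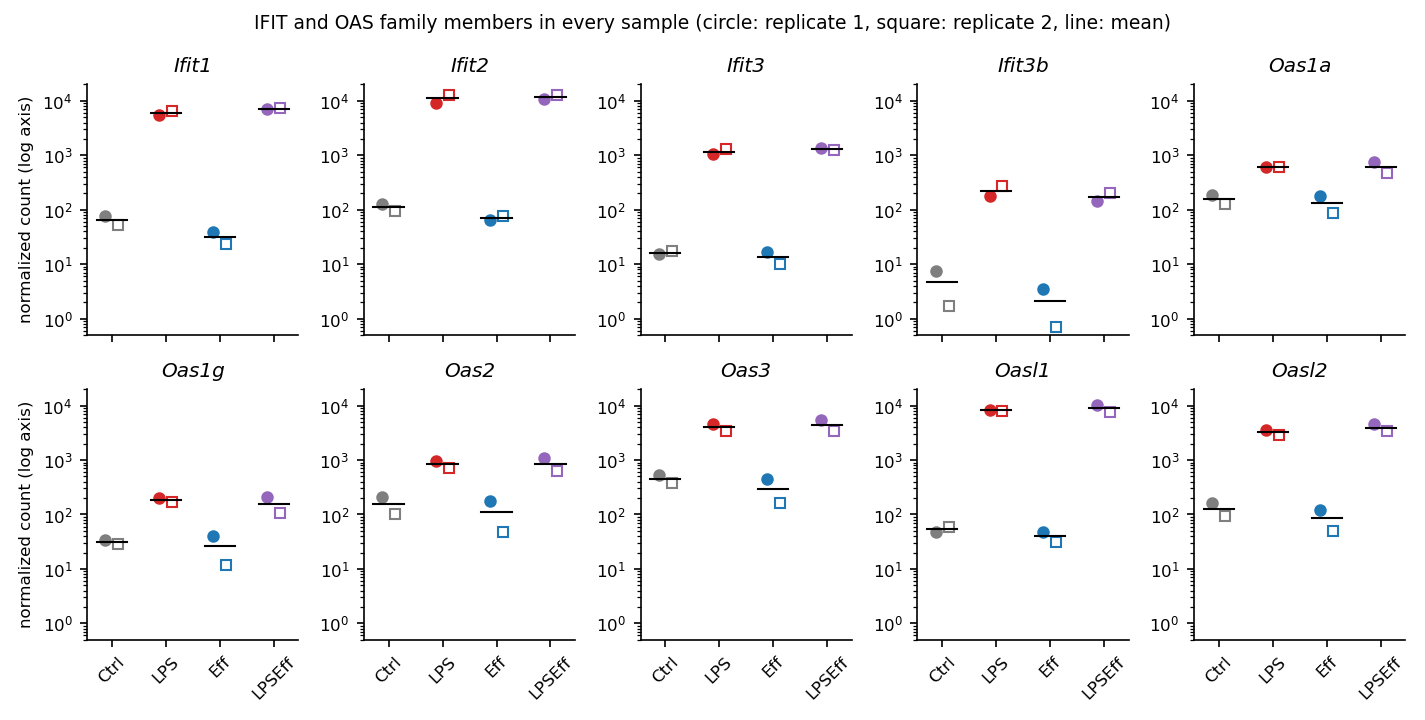
Normalized counts (log axis) of the 10 members in the 2 samples of each group, with replicate 1 as a filled circle, replicate 2 as an open square and the group mean as a line. Every member lies higher in the LPS and LPSEff samples than in the Ctrl and Eff samples, from the smallest distance for Oas1a to the largest for Oasl1 and Ifit1.

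All 6 OAS and OASL members also rose. The log2 fold changes of Oas1a, Oas1g, Oas2 and Oas3 (1.97 to 4.01) were below those of the OAS-like genes (4.69 to 7.79), a difference between genes that was not tested. Oas1a, a synthetase with a single catalytic unit, had 185 and 130 normalized counts in Ctrl, 612 and 608 in LPS, 178 and 87.5 in Eff, with 739 and 468 in LPSEff. Oas1g, its close copy, had 34.3 and 28.9 in Ctrl, 198 and 173 in LPS, 40.3 and 11.997 in Eff, with 206 and 105 in LPSEff. For both, every stimulated sample was above every unstimulated one, although Oas1a in LPSEff 2 was only 468 against 185 in Ctrl 1. The log2 fold change of Oas1a was 1.97 (SE 0.37, limma adjusted p = 0.0064) in naïve and 2.23 (SE 0.37, limma adjusted p = 0.0043) in efferocytic Mϕ, the smallest rises of the 10 members. That of Oas1g was 2.52 (SE 0.54, limma adjusted p = 0.012) and 2.68 (SE 0.54, limma adjusted p = 0.010).

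Oas2 and Oas3 are larger synthetases built from repeated OAS units. Oas2 had 209 and 103 normalized counts in Ctrl, 948 and 728 in LPS, 174 and 47.3 in Eff, with 1072 and 628 in LPSEff. Oas3 had 531 and 379 in Ctrl, 4509 and 3481 in LPS, 439 and 161 in Eff, with 5437 and 3381 in LPSEff. In both genes sample 1 was above sample 2 in each of the 4 groups. Oas2 rose by 2.49 (SE 0.59, limma adjusted p = 0.018) and 3.16 (SE 0.59, limma adjusted p = 0.0076) on the log2 scale, and Oas3 by 3.14 (SE 0.45, limma adjusted p = 0.0020) and 4.01 (SE 0.45, limma adjusted p = 0.00070), in naïve and efferocytic Mϕ.

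Of the OAS-like genes, Oasl1, which is known to restrain translation of Irf7 mRNA in mice, had 47.6 and 59.6 normalized counts in Ctrl, 8478 and 8133 in LPS, 48.2 and 31.8 in Eff, with 10374 and 7560 in LPSEff. Its log2 fold change was 7.26 (SE 0.25, limma adjusted p = 5.6e-06) in naïve and 7.79 (SE 0.25, limma adjusted p = 3.2e-06) in efferocytic Mϕ, with 95% intervals of 6.67 to 7.84 and 7.20 to 8.37. The intervals of Oas1a, 1.13 to 2.81 and 1.39 to 3.07, did not reach these values. Oasl2, its relative, had 160 and 94.8 in Ctrl, 3491 and 2932 in LPS, 123 and 49.4 in Eff, with 4537 and 3364 in LPSEff. Oasl2 rose by 4.69 (SE 0.42, limma adjusted p = 0.00023) and 5.63 (SE 0.42, limma adjusted p = 8.6e-05) on the log2 scale.

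In total, 10 of 10 members were called higher with LPS/IFNγ in naïve Mϕ, where limma called 12.4% of all 16309 genes tested higher and 11.6% lower. In efferocytic Mϕ, 10 of 10 members were called higher, against 10.7% of all genes called higher and 8.95% lower. Ifit3b passed the filter (a mean of at least 10 over all samples) only through the stimulated groups. Its means were 4.68 in Ctrl and 2.11 in Eff against 224 in LPS and 174 in LPSEff, so that its calls partly follow from the filter. The members had a median log2 fold change of 5.10 in naïve Mϕ, where the median of all genes was -0.01, and of 5.80 in efferocytic Mϕ, where it was 0.01. After rescaling of the samples to equal totals, limma called 1420 genes higher and 4315 lower in naïve Mϕ (2015 and 1895 before), 1216 and 4362 in efferocytic Mϕ (1753 and 1460 before), and the 10 members higher in both. The members lie in neighbouring positions and share sequence, so that they are not independent of each other. Oas1g and Oas2 lost their calls when some samples were left out, while their folds stayed of similar size. In naïve Mϕ, Oas1g had a log2 fold change of 2.64 (limma adjusted p = 0.053) without Ctrl 1, 2.40 (0.068) without Ctrl 2 and 2.42 (0.052) without LPS 1, and Oas2 had 1.98 (0.115) without Ctrl 2 and 2.30 (0.075) without LPS 1. In efferocytic Mϕ without LPSEff 1, Oas1g had 2.20 (0.074) and Oas2 2.77 (0.056). With the replicate number as a block, limma adjusted p in naïve Mϕ was 0.00019 for Oas1g and 4.5e-05 for Oas2. The other 8 members stayed called whichever sample was left out.

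**Figure D2:**
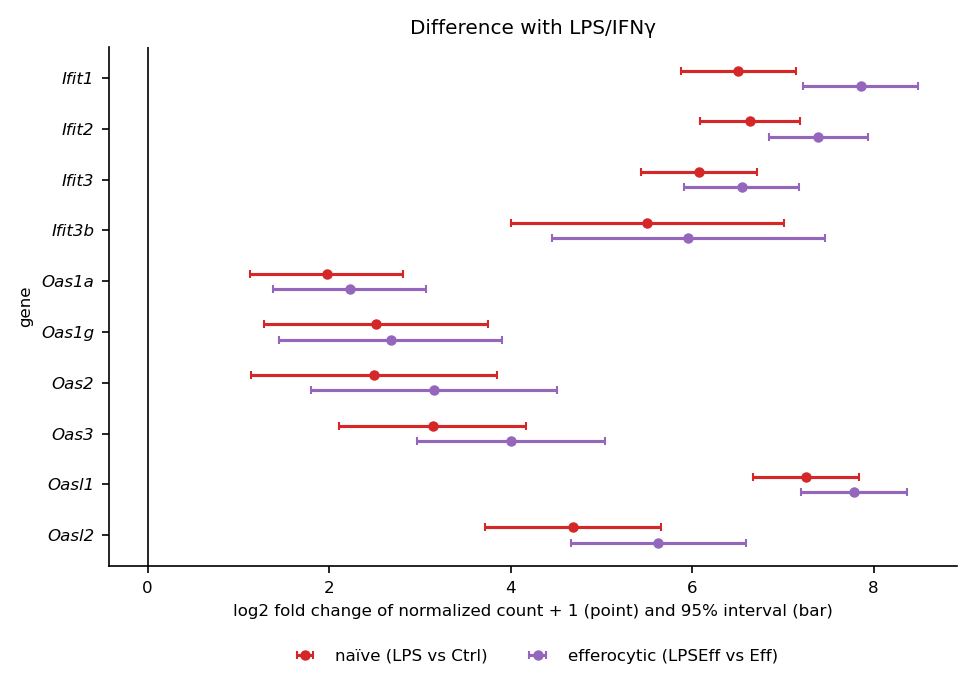
Log2 fold change of normalized count + 1 with LPS/IFNγ for each member (points) with its 95% interval from limma (bars), in naïve (LPS vs Ctrl) and efferocytic (LPSEff vs Eff) Mϕ. All 20 intervals lie above 0, those of the IFIT members, Oasl1 and Oasl2 above 3.72 and those of Oas1a, Oas1g, Oas2 and Oas3 starting between 1.13 and 2.97.

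Since transcripts differ in length, levels were compared between members per kb. The canonical transcripts ranged from 1911 bases (Oas1a) to 7421 bases (Ifit1), the coding sequences from 1101 bases (Oas1a, Oas1g) to 3414 bases (Oas3). In Ctrl, Oas3 (96.3 ± 22.8 normalized counts per kb of transcript, SD, n = 2) and Oas1a (82.2 ± 20.4) had the highest levels, and their samples overlapped. Ifit3b was lowest (2.29 ± 2.04), followed by Ifit3 (7.80 ± 0.716). With LPS, Oasl1 (3758 ± 110) and Ifit2 (2427 ± 573) led and did not overlap, whereas Oas1g (93.7 ± 9.03) and Ifit3b (110 ± 30.9) were the lowest and overlapped. The places of the copies are uncertain, since reads from shared stretches are left out. By count, Oas1g was 32% and 28% of Oas1a in LPS 1 and 2. Per 50-base window of all annotated exons that occurs once (941 for Oas1g, 5416 for Oas1a), it was 186% and 163%. The annotated exons of Oas1a cover 7989 bases, however, against 1911 in its canonical transcript. This second ratio thus depends on which exons are counted, and the order of the 2 genes is not settled. Per kb of coding sequence, Ifit2 (7899 ± 1864) was above Oasl1 (5418 ± 159) in LPS, and Ifit1 (4304 ± 456) above Oasl2 (2107 ± 259). The order of the members thus depends on the length used. In Eff, Oas1a (69.4 ± 33.4 per kb of transcript) and Oas3 (63.5 ± 41.6) were again highest and overlapped, and the samples of neighbours overlapped down to Ifit1 (4.17 ± 1.46). In LPSEff, the order per kb of transcript was Oasl1 (4057 ± 900), Ifit2 (2588 ± 364), Oasl2 (1265 ± 266), Ifit1 (969 ± 29.6), Oas3 (934 ± 308) and Ifit3 (619 ± 33.8). Oas3 overlapped with Ifit1 and with Oasl2 (1453 and 1077 against 1151 and 716), and the other neighbours were apart. Per kb of coding sequence it was Ifit2 (8420 ± 1183), Oasl1 (5849 ± 1298), Ifit1 (5179 ± 158) and Oasl2 (2592 ± 544), where Oasl1 and Ifit1 overlapped.

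The make-up of the OAS family differed between unstimulated and stimulated Mϕ. Oasl1 made up 6.10% to 10.9% of the summed OAS and OASL level per kb of transcript in Ctrl and 6.98% to 11.2% in Eff, but 58.4% to 61.9% in LPS and 58.2% to 60.3% in LPSEff. Oas1a made up 27.4% to 27.5% in Ctrl and 29.8% to 35.7% in Eff, but 4.87% to 5.35% in LPS and 4.32% to 4.79% in LPSEff, although its own level rose. The share of Oas3 was 31.9% to 32.5% in Ctrl, 26.6% to 29.8% in Eff, 12.4% to 14.5% in LPS and 12.6% to 14.3% in LPSEff. Per kb of coding sequence, the share of Oasl1 was 5.31% to 9.66% in Ctrl and 53.7% to 57.1% in LPS. Within the IFIT family, Ifit2 held the largest share in each sample, 48.4% to 66.7% in the unstimulated and 58.4% to 63.6% in the stimulated samples, and Ifit1 held 12.7% to 21.5% and 19.5% to 23.8%. Per kb of coding sequence, Ifit1 held 21.2% to 34.2% and 30.6% to 36.5%. As a sum, the IFIT members made up 0.00240% to 0.00342% of all normalized counts in Ctrl and 0.189% to 0.221% in LPS, and the OAS and OASL members 0.0114% to 0.0176% and 0.169% to 0.215%.

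**Figure D3:**
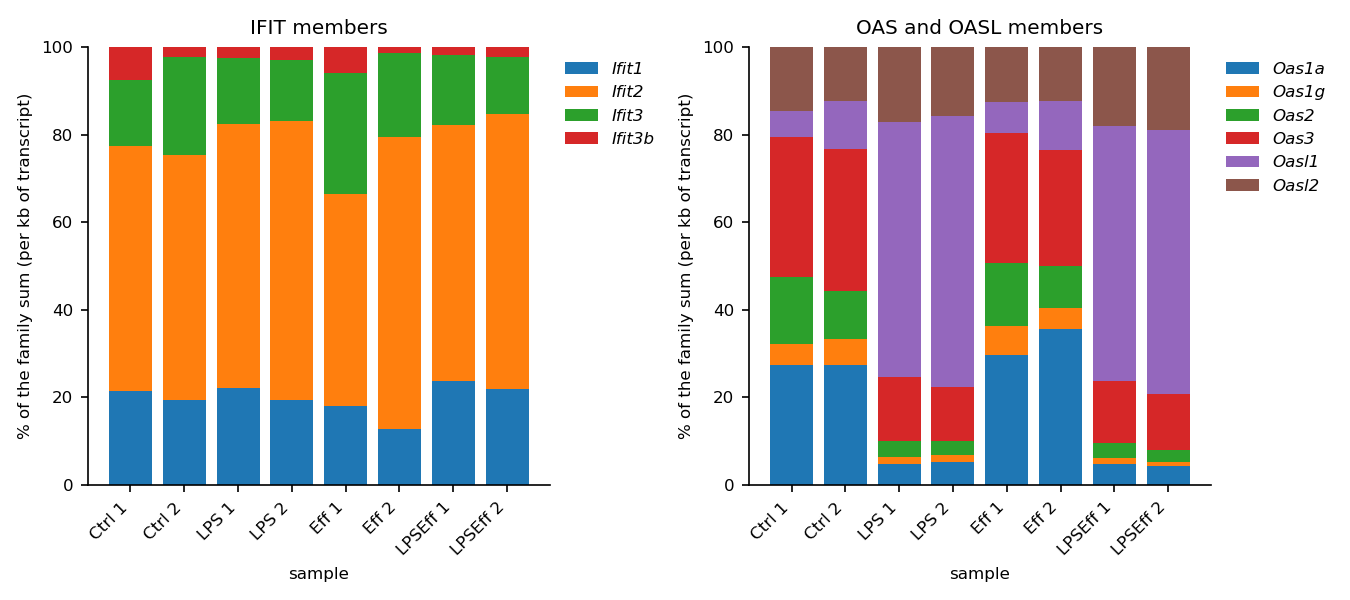
Share of each member in the summed level of its family per kb of transcript (%), for the IFIT members and for the OAS and OASL members, in each of the 8 samples. Oasl1 holds at most 11.2% of the OAS and OASL sum in the unstimulated samples and at least 58.2% in the stimulated ones, while Ifit2 is the largest IFIT share throughout.

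The sequences upstream of the members were examined for the elements through which type I interferon and IFNγ act. RefSeq windows from 250 bases before to 50 bases after the start of each gene (build GRCm38.p6) were found for 9 of the 10 members, all but Oas2. The ISRE core GAAANNGAAA, sought on both strands, was present in 6 of these 9 members, against 3.44% of all 32851 windows. Ifit1, Ifit3, Ifit3b, Oas1a and Oas1g each held 2 matches, as did 0.225% of all windows counted with at least 2, and Oas3 held 1. The stretches with these matches are given below, 5′ to 3′ on the strand of the gene, with the matches in capitals, since they show what members of the 2 families share and how close the copies are.
Ifit1: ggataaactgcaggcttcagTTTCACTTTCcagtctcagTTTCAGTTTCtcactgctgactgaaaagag
Ifit3: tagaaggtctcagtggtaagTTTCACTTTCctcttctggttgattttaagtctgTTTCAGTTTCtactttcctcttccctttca
Ifit3b: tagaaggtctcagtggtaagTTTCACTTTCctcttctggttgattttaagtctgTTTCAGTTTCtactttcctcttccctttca
Oas1a: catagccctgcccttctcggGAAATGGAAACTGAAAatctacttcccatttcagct
Oas1g: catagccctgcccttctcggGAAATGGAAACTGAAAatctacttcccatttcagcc
Oas3: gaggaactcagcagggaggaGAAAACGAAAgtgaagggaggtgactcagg

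These stretches lie at chr19:34640765-34640833 (Ifit1), chr19:34583353-34583436 (Ifit3) and chr19:34607749-34607832 (Ifit3b) on the plus strand, and at chr5:120907510-120907565 (Oas1a), chr5:120887596-120887651 (Oas1g) and chr5:120777705-120777754 (Oas3) on the minus strand of GRCm38.p6. In the IFIT genes the matches read on the opposite strand of the gene, and in Oas1a and Oas1g the 2 matches overlap. The windows of Ifit3 and Ifit3b shared an identical run of 169 bases and those of Oas1a and Oas1g one of 73 bases, against 13 bases for Ifit1 and Ifit3. The GAS core TTCNNNGAA was found in Ifit2 and Oas1a and in 8.3% of all windows, and the NF-κB core GGGANTTTCC in no member and in 0.411% of all windows. The windows of Ifit2, Oasl1 and Oasl2 held no ISRE core, although Ifit2 and Oasl1 rose by at least 6.64 on the log2 scale in both contexts. A match describes letters and is no proof of binding, and no match says only that these letters were not in this window.

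To determine whether the families differed after co-culture with apoptotic cells, Eff was compared with Ctrl. These groups differ in efferocytosis and in the dimerizer, as do LPSEff and LPS, so that the 2 cannot be told apart. No member was called by limma, where 0.251% of all genes were called in either direction, and 2 of the 10, Ifit1 and Ifit2, had an unadjusted p under 0.05. EdgeR and DESeq2 on the recovered reads also called 0 of the 10. Ifit1 was 38.6 and 23.3 in Eff against 78.1 and 53.2 in Ctrl, a log2 fold change of -1.08 (SE 0.28, 95% interval -1.71 to -0.44, limma adjusted p = 0.320). Ifit2 was 63.97 and 75.5 against 126 and 94.8, a log2 fold change of -0.64 (SE 0.24, limma adjusted p = 0.654). In these 2 genes both Eff samples were below both Ctrl samples, as in 17.8% of all genes, whereas the groups of the other 8 members overlapped.

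With the replicate number as a block, Ifit1 was the 1 member called, as lower in Eff (limma adjusted p = 0.025), where 0.975% of all genes were called lower. EdgeR with the same block gave an adjusted p of 0.078 for Ifit1 and called no member. Over all settings tried, the limma, edgeR and DESeq2 adjusted p of Ifit1 ranged from 0.025 to 0.999. The mean log2 fold change was below 0 for 10 of 10 members, with a range of -1.08 to -0.31 and a median of -0.65, and it was below 0 for 51.5% of all genes, whose median was -0.01. Within the replicate numbers, Eff was below Ctrl in both for 7 of 10 members, all but Ifit3, Oas1g and Oasl1, and for 33.4% of all genes. Among the 7, Ifit3b rested on 4 and 3 reads in Ctrl against 4 and 1 in Eff, so that its direction is uncertain. Some directions turned when a single sample was left out, which sets the other sample of its group against both Ctrl or both Eff samples. Such values also take in the difference between samples 1 and 2. In Eff, sample 1 was above sample 2 by 1.02 for Oas1a, 1.67 for Oas1g, 1.86 for Oas2 and 0.70 for Ifit3 on the log2 scale. Without Eff 2, the log2 fold change of Oas1a was 0.20, that of Oas1g 0.35, that of Oas2 0.25 and that of Ifit3 0.032, whereas Oas3 and Oasl2 came to -0.031 and -0.0061. Without Ctrl 1, that of Ifit3b was 0.0195. Without the block, the intervals of the OAS and OASL members were wide, for example -2.04 to 0.67 for Oas2 and -1.02 to 0.15 for Oasl1, and included 0. With it, the unadjusted limma p was 0.031 for Oas2, 0.0060 for Oas3 and 0.012 for Oasl2. For Oasl1, Oas1a and Oas1g it was 0.054 to 0.18, and the adjusted limma p of the OAS and OASL members was 0.119 to 0.578.

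After LPS/IFNγ, LPSEff was compared with LPS. No member was called by limma, where 0.773% of all genes were called in either direction, none had an unadjusted p under 0.05, and edgeR and DESeq2 called 0 of the 10. The log2 fold changes ranged from -0.36 (Ifit3b, 95% interval -1.86 to 1.15) to 0.29 (Oasl2, -0.68 to 1.25). Ifit1 was the single member whose groups did not overlap, with 7039 and 7349 in LPSEff against 5530 and 6426 in LPS, a log2 fold change of 0.27 (95% interval -0.37 to 0.91, limma adjusted p = 0.835). In 19.3% of all genes both LPSEff samples were above both LPS samples. The narrowest interval was that of Ifit2, -0.44 to 0.65.

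Whether LPS/IFNγ acted differently in efferocytic and naïve Mϕ was tested as an interaction. It was above 0 for 10 of 10 members, with a range of 0.16 (Oas1g) to 1.35 (Ifit1) and a median of 0.60 on the log2 scale, and above 0 for 51.5% of all genes. Limma called 0% of all genes and none of the members, edgeR and DESeq2 called 0 of the 10, and 1 member, Ifit1, had an unadjusted p under 0.05 (interaction 1.35, SE 0.39, 95% interval 0.45 to 2.25, limma adjusted p = 1.0). Within the replicate numbers it was above 0 in both for 9 of 10 members, all but Oas1g (-0.17 and 0.50), and for 28.7% of all genes, and that of Ifit1 was 1.35 in either. Among the 9, Ifit3b rested on at most 4 reads in each unstimulated sample. Without Eff 2, the interaction came to -0.25 for Oas1a, -0.67 for Oas1g, -0.26 for Oas2 and -0.25 for Ifit3b, values that also take in the difference between samples 1 and 2. It also came below 0 for Oas1a and Oas1g without LPSEff 1 (-0.073 and -0.32) and for Ifit3b without Ctrl 1 (-0.38). The interaction of every member, Ifit1 included, draws on the same Eff and Ctrl samples as the comparison of Eff with Ctrl. Its direction is therefore no separate evidence. In that comparison all 10 members were below 0, whereas in LPSEff vs LPS 6 were above 0 and 4 below, with a median of 0.10. The summed fibroblast markers were higher in the efferocytic groups through Col1a1, Col1a2 and Col3a1, whereas Pdgfrb was lower in LPSEff (82.3 and 157) than in LPS (246 and 245) and Thy1 and Lum overlapped between them, and the part of fibroblast RNA in these comparisons was not tested.

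**Figure D4:**
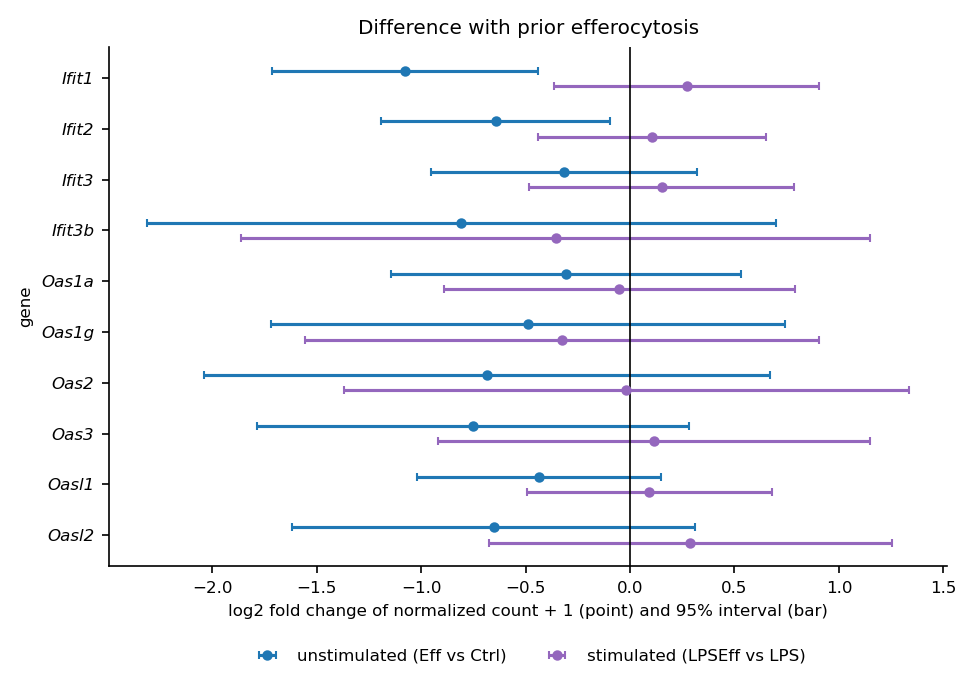
Log2 fold change of normalized count + 1 with prior efferocytosis for each member (points) with its 95% interval from limma (bars), in unstimulated (Eff vs Ctrl) and stimulated (LPSEff vs LPS) Mϕ. All 10 unstimulated points lie below 0, but only the intervals of Ifit1 and Ifit2 exclude 0, and all 10 stimulated intervals include it.

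The samples of a group differed in opposite directions for both families in the stimulated groups, but not in the unstimulated ones. Over the 6 OAS and OASL members and the 4 groups, sample 1 was above sample 2 in all comparisons but that of Oasl1 in Ctrl (47.6 against 59.6). The median difference of the OAS and OASL members, sample 1 minus sample 2, was 0.50 in Ctrl, 0.22 in LPS, 1.37 in Eff and 0.67 in LPSEff on the log2 scale. That of the IFIT members was 0.47, -0.40, 0.70 and -0.18, in the same order. Of the IFIT members, 0 of 4 were higher in sample 1 of LPS and 1 of 4 in sample 1 of LPSEff, while 3 of 4 were in Ctrl and in Eff. Of all genes tested, 40.5% to 43.4% were higher in sample 1. The largest gap was that of Oas2 in Eff, 174 against 47.3, a difference of 1.86, and that of Oas1g in the same group was 1.67. Pooled over the 4 groups, the standard errors were 0.37 to 0.59 for Oas1a, Oas1g, Oas2 and Oas3 against 0.24 to 0.28 for Ifit1, Ifit2 and Ifit3. That of Ifit3b, which rested on few reads in the unstimulated samples, was the largest of all members (0.66). Those of Oasl1 and Oasl2 were 0.25 and 0.42, so that the spread did not divide the families. The larger spread of these 4 OAS genes than of Ifit1, Ifit2 and Ifit3 did not hold in each group. In LPS, the differences of Oas1a, Oas1g, Oas2 and Oas3 were 0.0082 to 0.38, against -0.22 to -0.49 for these IFIT genes.

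**Figure D5:**
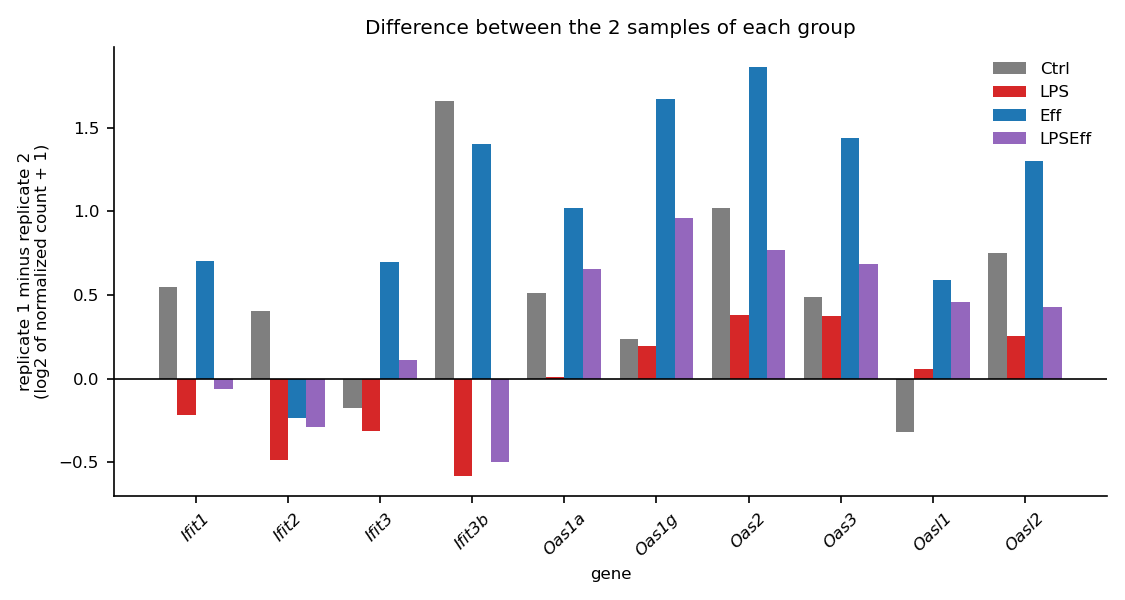
Difference between sample 1 and sample 2 of each group for each member, on the log2 scale of normalized count + 1. The OAS and OASL bars point up in all groups except for Oasl1 in Ctrl, with the highest, 1.86, for Oas2 in Eff, whereas those of Ifit1, Ifit2 and Ifit3b point down in the LPS and LPSEff groups.

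The genes around the families were followed in a list of 36 genes of the pathway, of which 34 passed the filter. In naïve Mϕ, 25 of the 34 were called higher and 3 lower with LPS/IFNγ, against 12.4% and 11.6% of all genes, with a median log2 fold change of 2.37. In efferocytic Mϕ, 26 were called higher and 2 lower, against 10.7% and 8.95% of all genes, with a median of 2.53. Among the ligands, Ifnb1, which encodes interferon β, had 1 read in each Ctrl sample, 14 and 32 in LPS, 0 in both Eff samples, with 10 and 12 in LPSEff, and did not pass the filter. Of the receptors and their kinases, Ifnar1, Ifnar2, Jak2 and Tyk2 were called higher in both contexts and Ifngr2 in efferocytic Mϕ alone, a difference between contexts that limma did not call.

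Stat2 and Irf9, factors that act at ISREs, rose. The log2 fold change in naïve and efferocytic Mϕ was 2.63 (SE 0.17) and 3.22 (SE 0.17) for Stat2, and 1.41 (SE 0.19) and 1.82 (SE 0.19) for Irf9, with a limma adjusted p of at most 0.0016. Irf7, the factor that amplifies interferon transcription, rose by 5.25 (SE 0.49) and 5.48 (SE 0.49), from 103 and 89.1 normalized counts in Ctrl to 4544 and 2970 in LPS. The largest called rises of the list were those of Rsad2, the antiviral enzyme viperin (7.91, SE 0.32, and 8.89, SE 0.32), its neighbour Cmpk2 (7.22, SE 0.67, and 8.04, SE 0.67) and the ubiquitin-like Isg15 (6.76, SE 0.34, and 7.22, SE 0.34). Of the members, Oasl1 came into the range of these 3 in naïve Mϕ, and Ifit1, Ifit2 and Oasl1 did in efferocytic Mϕ.

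Some genes of the list fell, 3 of 34 in naïve and 2 of 34 in efferocytic Mϕ. These shares were no larger than those of all genes called lower (11.6% and 8.95%). Pde12, which degrades 2-5A, fell by 0.76 (SE 0.19, limma adjusted p = 0.021) and 0.83 (SE 0.19, limma adjusted p = 0.017). Abce1, a ribosome recycling factor, fell by 1.29 (SE 0.24, limma adjusted p = 0.0062) and 1.08 (SE 0.24, limma adjusted p = 0.015). Mavs, the adaptor of cytosolic RNA sensors, fell by 1.03 (SE 0.21, limma adjusted p = 0.0094) in naïve Mϕ and had -0.64 (SE 0.21, limma adjusted p = 0.065) in efferocytic Mϕ.

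For efferocytosis, 0 of the 34 pathway genes were called by limma in Eff vs Ctrl, where 8 had an unadjusted p under 0.05 (6.13% of all genes had), and 0 in LPSEff vs LPS, where 2 had (10.3% of all genes). EdgeR called 0 in either, and DESeq2 called 2 lower in Eff vs Ctrl (Stat2 and Mx1), against 0.245% of all genes, and 1 lower in LPSEff vs LPS (Mx1), against 0.497%. With the replicate block, limma called 5 lower in Eff vs Ctrl (Stat2, Irf1, Ifih1, Mx1 and Rsad2), against 0.975% of all genes, and 1 of 34 in LPSEff vs LPS (Mx1), a share near the 2.65% of all genes. Mx1, a dynamin-like antiviral GTPase named here after its values were seen, had 227 and 234 normalized counts in Ctrl against 99.9 and 92.5 in Eff, and 3960 and 5378 in LPS against 2570 and 2617 in LPSEff. Its log2 fold change in Eff vs Ctrl was -1.25 (SE 0.19, limma adjusted p = 0.055).

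Of the 8 relatives that were no members, Ifit1bl1 had between 1.90 and 6.94 normalized counts in the unstimulated and 391 to 661 in the stimulated samples, Ifit1bl2 0.706 to 5.78 and 46.6 to 52.3, and Oas1b 23.99 to 39.99 and 178 to 257. Oas1c showed no such gap, with 26.1 to 49.2 and 36.8 to 56.2. Oas1d, Oas1e, Oas1f and Oas1h had at most 15 reads in any sample. The genes outside both families whose pattern over the 8 samples was most like the mean of the IFIT members were Ifi204, Gm44148, Tnip1, A930037H05Rik and Rnf213, with Pearson r of 0.998 to 1.0. For the OAS and OASL members they were Cmpk2, Trim14, Cdc42ep2, Palld and Rtp4, with r of 0.995 to 0.996. These correlations describe 8 samples that fall into stimulated and unstimulated ones, and the members themselves had r of 0.979 to 0.999 with the mean of their own family.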

How the data were processed

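RNA sequencing was analysed in 8 samples of mouse BMDMs, 2 per group. The authors trimmed single-end reads with cutadapt, removed rRNA with bowtie2, mapped to mm39 with STAR, counted with htseq-count and deposited the signal of each gene as counts divided by a size factor per sample. The GENCODE release used for counting is not given in the sources used here; names, positions and lengths were taken from GENCODE on GRCm39, the same build, and 54749 of 55359 identifiers matched. Promoter windows came from RefSeq on GRCm38.p6.

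Limma 3.58.1 (R 4.3.3) with a trend was fitted to log2(normalized count + 1) for 16309 genes averaging 10 or more, with all 8 samples and 4 residual degrees of freedom. A gene counted as called below 0.05 after Benjamini-Hochberg adjustment over these genes. Alternatives are edgeR 4.0.16 and DESeq2 1.42.0 on the recovered reads, pseudocounts of 0.5 and 5, other filters, equal totals, quantile normalization, the compared groups alone, the replicate number as a block and each sample left out. Neither labels nor methods state that samples with the same number share a preparation, but their deviations from the group means correlated between all group pairs (r of 0.404 to 0.595 across genes), so that the numbers were treated as pairs in the block. Tests were checked on simulated counts. Uniqueness was counted over all 50-base windows of annotated exons in both strands of the genome.

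The members and lists were chosen with earlier results of these data known. All members are named, with Ifnb1, Stat2, Irf9, Irf7 and, for each LPS/IFNγ comparison, the 3 largest called rises and falls of the list, and the 5 genes most alike in pattern. Some genes of the list are not reported here.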

Additional observations from a re-analysis of the deposited data

Results flagged for a closer look

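Ifit1 was the 1 member whose samples moved in opposite directions with efferocytosis in both contexts. Both Eff samples (38.6 and 23.3 normalized counts) were below both Ctrl samples (78.1 and 53.2), and both LPSEff samples (7039 and 7349) were above both LPS samples (5530 and 6426). The difference between these effects was 1.35 on the log2 scale (SE 0.39), with an unadjusted limma p of 0.0084 and an adjusted p of 1.0 over all genes tested. Without a test, 315 of 16309 genes (1.93%) had groups apart in opposite directions, 170 of them (1.04%) lower without and higher with LPS/IFNγ.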

How the results depend on the processing

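Groups held 2 samples each, with between 706 and 52525 reads on the members. All 19 alternatives were run for each comparison where they apply, and all kept the 10 members above 0 with LPS/IFNγ. Rescaling to equal totals moved the median log2 fold change of all genes by -0.39 in LPS vs Ctrl and -0.44 in LPSEff vs Eff, and the 10 members were called higher there as well. Leaving out a sample gave 8 to 10 members called in either LPS/IFNγ comparison, and 0 in Eff vs Ctrl, LPSEff vs LPS and the interaction. The replicate block gave 1 member (Ifit1) in Eff vs Ctrl and changed no other call of a member. Pathway genes called in Eff vs Ctrl numbered 5 with the replicate block, 3 with edgeR and the block, 2 with DESeq2, and 1 each with genes of a mean above 0, equal totals and quantile normalization, and 0 to 1 without single samples. In LPSEff vs LPS they numbered 1 with the block, 1 with DESeq2 and 2 with edgeR and the block. The cause was not tested. Directions of uncalled members reversed in places. In Eff vs Ctrl, values without single samples ranged from -0.67 to 0.0323 (Ifit3), -1.64 to 0.0195 (Ifit3b), -0.81 to 0.20 (Oas1a), -1.32 to 0.35 (Oas1g) and -1.62 to 0.25 (Oas2). In LPSEff vs LPS they ranged from -0.14 to 0.35 (Ifit2), -0.0046 to 0.31 (Ifit3), -0.38 to 0.28 (Oas1a), -0.81 to 0.15 (Oas1g), -0.40 to 0.37 (Oas2), -0.23 to 0.46 (Oas3) and -0.14 to 0.32 (Oasl1), and Oas2 was 0.0222 with edgeR and 0.0076 with DESeq2. For the interaction they ranged from -0.38 to 1.28 (Ifit3b), -0.25 to 0.76 (Oas1a), -0.67 to 1.00 (Oas1g) and -0.26 to 1.60 (Oas2).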
